A study of Homo sapiens with 4 samples.

Results

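The NRF2 antioxidant target genes examined here were NFE2L2, which encodes NRF2 itself, and 8 genes that NRF2 is known to activate, namely NQO1, GCLC, GCLM, HMOX1, TXNRD1, SRXN1, SLC7A11 and AKR1B10. They were chosen by symbol, 9 of 27685 genes in the deposited tables, and hold 27 of the 63714 RefSeq transcripts listed there, summed per gene. RNA-seq was performed on HT-29, an epithelial line established from a human colorectal adenocarcinoma. The 4 libraries came from 2 independent experiments, each with 1 library of cells carrying the empty vector (Control; genotype WT in the labels, Mock in the tables) and 1 of cells stably overexpressing TRIM40, an E3 ubiquitin ligase, with a Myc tag at its N-terminus (Myc-TRIM40). No cells were treated otherwise. The study's methods describe retroviral transduction and puromycin selection, and whether the cells were a pool or 1 clone is not given in the sources used here.

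NRF2 is a transcription factor that the KEAP1 and CUL3 ubiquitin ligase marks for degradation in unstressed cells. When oxidants or electrophiles modify KEAP1, NRF2 escapes, enters the nucleus and, with a small MAF protein, binds antioxidant response elements near genes of glutathione synthesis, thioredoxin recycling and quinone or carbonyl reduction. The control is mainly over the protein, so that NFE2L2 RNA need not change when the targets do, and the RNA of the targets is widely read as a measure of the pathway in gut epithelium and other tissues.

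None of the 9 genes passed an adjusted p of 0.05 between Myc-TRIM40 and Control cells, 0 of 9 against 0.0605% of the 14868 genes tested, 0.0404% higher and 0.0202% lower (edgeR's quasi-likelihood test with the experiment as a block, Benjamini-Hochberg adjustment). None passed an unadjusted p of 0.05 either, against 4.54% of all genes tested. The fitted log2 fold changes lay between -0.33 (NQO1) and 0.34 (SLC7A11), and their median was -0.0018, beside 0.037 over all genes tested. On normalized reads, SLC7A11, GCLM and TXNRD1 (3 of 9) were higher with Myc-TRIM40 in both experiments, where 28.6% of all genes tested were. NQO1 and AKR1B10 (2 of 9) were lower in both, where 26.3% were, and the other 4 genes differed in opposite directions, as did 45.0% of all genes. The log2 difference of AKR1B10 in experiment 1 was only -0.00018, so that gene was level there and its sign carries no weight. On FPKM + 1, NFE2L2, HMOX1 and SRXN1 took the other sign over both experiments, with fitted log2 differences of 0.085, 0.061 and 0.069 in limma, while the median of all genes moved by 0.10 in experiment 2. A ratio of FPKM + 1 of at least 1.5 was reached by 0 of 9 genes in experiment 1 and by 0 of 9 in experiment 2, where 3.44% and 11.4% of the genes tested reached it in either direction, 0.659% of them lower in experiment 1. In both experiments together it was reached upward by 0.457% and downward by 0.0874% of the genes tested.

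Antioxidant response elements share the core TGACNNNGC, and stretches around the start sites of these genes were searched for these letters. RefSeq windows of 300 bases (GRCh38.p14, 250 bases before to 50 after an annotated start site) matched 6 of the 9 genes with 8 windows. HMOX1, SLC7A11 and AKR1B10 had no entry. The core was found, on either strand, in 3 of the 8 windows, which belong to GCLM and TXNRD1, beside 13.3% of 35116 windows of the same length over all genes. No match lay in the windows of NFE2L2, NQO1, GCLC or SRXN1, which says only that these letters are not in those windows. In the sequences, written along the strand of the gene, capitals mark the core or its reverse complement. In GCLM (minus strand) it began 34 bases before the start site, and in TXNRD1 (plus strand) it began 99 and 8 bases before the first start site and 102 bases before the second.
GCLM, chr1:93909381-93909680: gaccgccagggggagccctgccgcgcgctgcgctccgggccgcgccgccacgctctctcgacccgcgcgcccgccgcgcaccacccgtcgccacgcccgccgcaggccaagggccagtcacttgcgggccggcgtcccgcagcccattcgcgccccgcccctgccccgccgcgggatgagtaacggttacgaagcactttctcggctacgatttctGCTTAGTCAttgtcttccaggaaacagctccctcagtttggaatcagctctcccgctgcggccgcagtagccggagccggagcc
TXNRD1, chr12:104215529-104215828: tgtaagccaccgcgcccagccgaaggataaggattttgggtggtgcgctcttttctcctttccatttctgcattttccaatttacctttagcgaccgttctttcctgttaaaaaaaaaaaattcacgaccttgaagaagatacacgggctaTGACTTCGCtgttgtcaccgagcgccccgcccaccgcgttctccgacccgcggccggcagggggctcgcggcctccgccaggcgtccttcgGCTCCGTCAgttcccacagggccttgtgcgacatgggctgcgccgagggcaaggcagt
TXNRD1, chr12:104286782-104287081: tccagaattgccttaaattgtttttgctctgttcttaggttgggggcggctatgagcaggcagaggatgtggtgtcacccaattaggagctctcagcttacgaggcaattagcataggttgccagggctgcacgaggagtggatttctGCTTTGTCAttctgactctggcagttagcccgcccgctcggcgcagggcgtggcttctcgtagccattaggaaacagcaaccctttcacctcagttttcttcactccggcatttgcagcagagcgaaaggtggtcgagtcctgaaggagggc

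The 4 libraries held between 60954602 and 67424698 reads. TRIM40 itself had 0 reads in both Control libraries, and 272646 and 110665 reads with Myc-TRIM40 in experiments 1 and 2. Of 11 markers of colon epithelium, 10 were at or above 1 TPM in every library, with KRT8 and KRT18 the highest and CDX1 under 1 TPM, and their summed level ran from 15639 to 18454 TPM. The leukocyte marker PTPRC was at or near 0, and CD3E, DCN, COL1A2, COL3A1 and CDH5 were listed at 0 in every library. The leukocyte markers CD68 and CD14 were at 10.6 to 26.5 TPM and 3.13 to 5.28 TPM. The summed level was 1.65 to 3.04 TPM for 5 fibroblast markers and 0.123 to 0.300 TPM for 3 endothelial markers.

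The levels of the 9 genes, given as FPKM so that they can be compared between genes of different length, spanned a wide range and kept nearly the same order in the 4 libraries. NQO1 was the highest in each, followed by TXNRD1, AKR1B10, NFE2L2, SRXN1 and GCLC, while GCLM, SLC7A11 and HMOX1 were the 3 lowest and changed places. In the Control library of experiment 1, NQO1 exceeded 98.3% of the genes tested and HMOX1 41.9%. Over the 4 libraries the FPKM range of TXNRD1 (85.1 to 117.1) overlapped that of AKR1B10 (72.9 to 96.2). The ranges of GCLM (6.36 to 11.5), SLC7A11 (5.42 to 13.5) and HMOX1 (4.74 to 6.67) overlapped each other. Across libraries these neighbours were thus not separated beyond their spread. Within each library, TXNRD1 was above AKR1B10 and GCLM above HMOX1, while SLC7A11 changed places with GCLM and with HMOX1. NFE2L2, SRXN1 and GCLC did not overlap their neighbours in the order. The FPKM values of the experiments come from tables normalized separately.

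**Figure D1:**
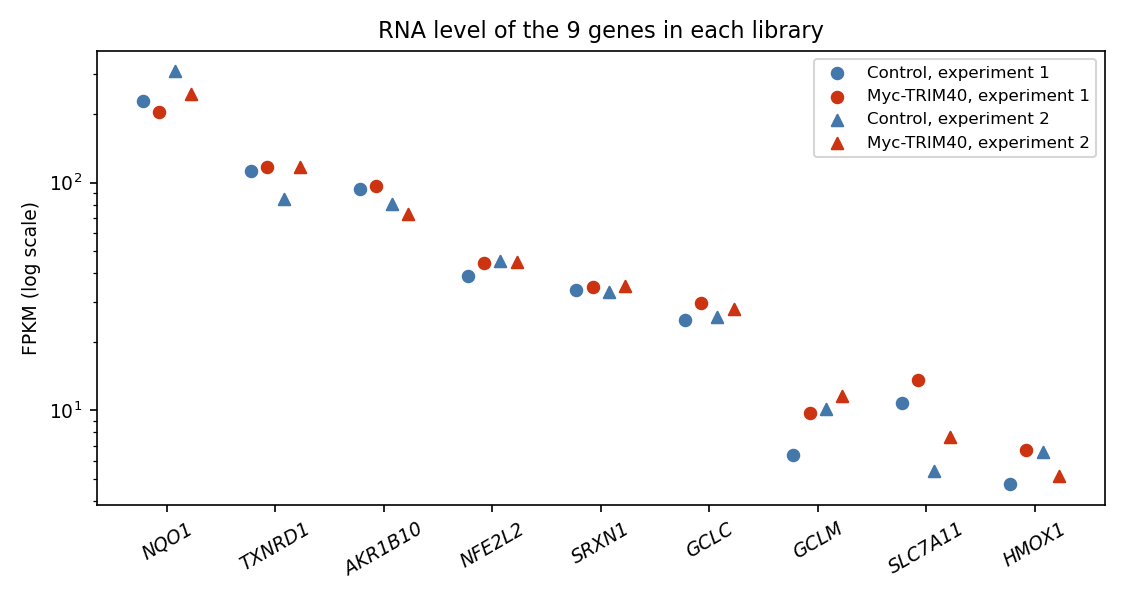
FPKM of each of the 9 genes (log axis) in the 4 libraries, with circles for experiment 1, triangles for experiment 2, blue for Control and red for Myc-TRIM40. NQO1 is the highest gene in every library, and the symbols of SLC7A11 separate by experiment rather than by colour.

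NFE2L2 (Entrez gene 4780, chromosome 2 from 178095031 to 178129859 in hg19, the build named in the submitters' processing notes) was at 39.0 and 44.3 FPKM in the Control and Myc-TRIM40 libraries of experiment 1. In experiment 2 it was at 45.2 and 44.9 FPKM. The Myc-TRIM40 values lay within the range of the Control values. The fitted fold change was 0.999 (95% interval 0.704 to 1.42, adjusted p = 0.999 in edgeR), with log2 differences of 0.14 and -0.14 in experiments 1 and 2 on reads normalized by TMM, edgeR's scaling between libraries.

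The synthesis of glutathione, the main thiol antioxidant of the cell, begins with the import of cystine and the ligation of cysteine to glutamate. SLC7A11, the cystine and glutamate exchanger xCT (chromosome 4 from 139085248 to 139163503), was at 10.8 FPKM in Control and 13.5 FPKM in Myc-TRIM40 cells in experiment 1. The corresponding values of experiment 2 were 5.42 and 7.67 FPKM. Its fitted fold change, the highest of the 9, was 1.26 (95% interval 0.899 to 1.77, log2 fold change 0.34, SE 0.21, adjusted p = 0.888 in edgeR). The libraries separated by experiment and not by condition, since both values of experiment 1 lay above both of experiment 2. Normalized reads of experiment 1 exceeded those of experiment 2 by 1.87-fold in Control and by 1.77-fold in Myc-TRIM40 cells, while Myc-TRIM40 exceeded Control by log2 0.30 and 0.38 within the experiments. SLC7A11-AS1, which overlaps the gene, had 0 reads in 3 libraries and 2 with Myc-TRIM40 in experiment 2. Whether reads were assigned by strand is not given in the sources used here.

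GCLC, the catalytic subunit of glutamate-cysteine ligase (chromosome 6 from 53362140 to 53409927), was at 24.8 and 29.5 FPKM for Control and Myc-TRIM40 in experiment 1. It was at 25.6 and 27.9 FPKM in experiment 2. On these FPKM values the Myc-TRIM40 libraries were above both Controls, but on TMM-normalized counts (CPM) the experiments gave 1.16-fold and 0.999-fold, and the conditions overlapped. GCLM, the modifier subunit that raises the affinity of the ligase for its substrate (chromosome 1 from 94350756 to 94375154), was at 6.36 and 9.69 FPKM in experiment 1 and at 10.2 and 11.5 FPKM in experiment 2. The Control library of experiment 1 stood below the other 3. GCLM thus gave the largest difference of the 9 within an experiment, log2 0.58 on normalized reads in experiment 1, against 0.048 in experiment 2. The fitted fold change was 1.24 (95% interval 0.867 to 1.78, adjusted p = 0.888 in edgeR) for GCLM and 1.08 (0.762 to 1.52, adjusted p = 0.947) for GCLC.

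TXNRD1, the cytosolic selenoprotein that returns thioredoxin to its reduced form (chromosome 12 from 104609557 to 104744085), was at 112.4 and 116.8 FPKM for Control and Myc-TRIM40 in experiment 1. The values of experiment 2 were 85.1 and 117.1 FPKM. It was the only one of the 9 genes whose Myc-TRIM40 libraries did not overlap the Control libraries on normalized reads, at 473.9 and 469.7 against 461.5 and 374.0 CPM, where 20.7% of all genes tested were separated, 11.0% upward and 9.67% downward. The Control library of experiment 2 stood below the other 3. The fitted fold change was 1.14 (95% interval 0.824 to 1.57, adjusted p = 0.900 in edgeR). EID3, which lies within TXNRD1 in the tables, had 14 to 28 reads against 23831 to 30207 for TXNRD1.

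SRXN1, sulfiredoxin, reduces overoxidized peroxiredoxins (chromosome 20 from 627268 to 634014). Its values were the most alike of the 9, at 33.6 and 34.8 FPKM for Control and Myc-TRIM40 in experiment 1 and at 33.0 and 35.2 FPKM in experiment 2. On FPKM the Myc-TRIM40 libraries were above both Controls, whereas normalized reads ran from 92.6 to 96.5 CPM with both Myc-TRIM40 values between the Controls. The fitted fold change was 0.994 (95% interval 0.708 to 1.40, adjusted p = 0.998 in edgeR).

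NQO1, which reduces quinones by transferring 2 electrons at once (chromosome 16 from 69743304 to 69760571), was the most abundant of the 9. Its Control and Myc-TRIM40 values were 228.5 and 204.7 FPKM in experiment 1, and 307.8 and 244.6 FPKM in experiment 2. The Control library of experiment 1 lay below the Myc-TRIM40 library of experiment 2, so that the conditions overlapped although both experiments had the same sign. The fitted fold change was 0.798 (95% interval 0.587 to 1.08, log2 fold change -0.33, SE 0.19, adjusted p = 0.888 in edgeR), and the difference did not pass the test. AKR1B10, an aldo-keto reductase that acts on aldehydes and retinal (chromosome 7 from 134212344 to 134226166), was at 93.9 and 96.2 FPKM in experiment 1 and at 80.8 and 72.9 FPKM in experiment 2. Normalized reads in experiment 1 were 153.6 CPM in each library, and 140.5 and 116.1 CPM in experiment 2. The fitted fold change was 0.909 (95% interval 0.641 to 1.29, adjusted p = 0.930 in edgeR). AKR1B15, a close relative with which reads could be shared, was listed at 0 reads in all 4 libraries.

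HMOX1, heme oxygenase 1, which opens the heme ring to release iron and biliverdin (chromosome 22 from 35777060 to 35790207), was the lowest of the 9 in 3 of the 4 libraries. Control and Myc-TRIM40 were at 4.74 and 6.67 FPKM in experiment 1, and at 6.57 and 5.16 FPKM in experiment 2. The experiments differed in direction, with 472 and 665 reads in the first and 725 and 527 reads in the second. The log2 differences of 0.45 and -0.47 nearly cancelled in the fit (fold change 0.994, 95% interval 0.643 to 1.54, adjusted p = 0.998 in edgeR). Each experiment has 1 library per condition, so the difference between the experiments was not tested.

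**Figure D2:**
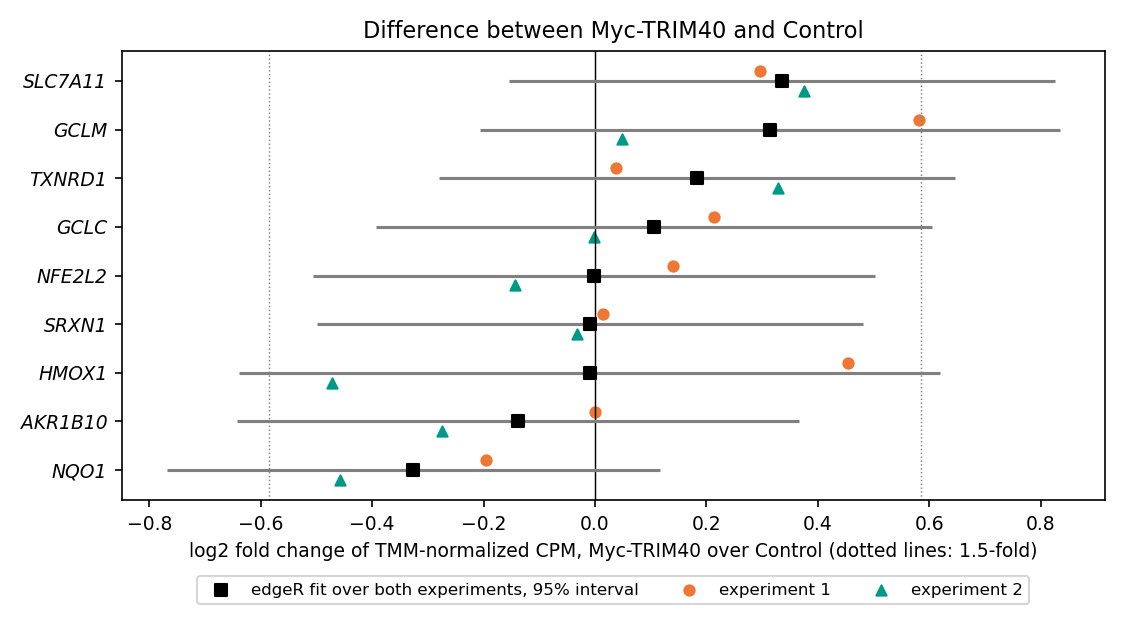
log2 fold change of TMM-normalized CPM, Myc-TRIM40 over Control, for each of the 9 genes in experiment 1 (circles), in experiment 2 (triangles) and in the edgeR fit over both (squares with 95% intervals). Every interval includes 0, and HMOX1 has its circle and its triangle on opposite sides of it.

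For 7 of the 9 genes the mean log2 difference between experiments was larger than that between conditions, as for 71.6% of the genes tested, and for 6 of 9 the libraries of the experiments did not overlap, as for 63.2%. The upper ends of the 95% intervals ran from 1.08-fold (NQO1) to 1.78-fold (GCLM) and the lower ends from 0.587-fold (NQO1) to 0.899-fold (SLC7A11). Fold changes within the interval of a gene are not excluded for it, and no change is among them. The intervals do not give the smallest change that 2 experiments could detect. The smallest two-sided p of an exact permutation test over these 4 libraries, with the experiments ignored, is 0.333. A test that exchanges conditions only within an experiment has a still larger smallest p.

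In experiment 2 the difference between conditions moved with transcript length across all genes. With the genes tested divided into 4 groups by length, the median log2 difference was -0.42 in the shortest group (up to 1778 bases), then -0.13, 0.12 and 0.43. In experiment 1 the 4 medians lay between -0.034 and 0.023. Among the 9 genes in experiment 2, HMOX1 and AKR1B10 (1590 and 1596 bases), the shortest, were at -0.47 and -0.28, and SLC7A11 (9648 bases), the longest, was at 0.38, but NQO1 (2577 bases) was at -0.46 and GCLM (5035 bases) at 0.048. Set against the median of its own length group, SLC7A11 was at 0.27 in experiment 1 and -0.053 in experiment 2, GCLM at 0.56 and -0.38, and TXNRD1 at 0.027 and 0.20. NQO1 remained lower in both experiments, at -0.20 and -0.33. The part of transcript length in these differences was not tested.

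**Figure D3:**
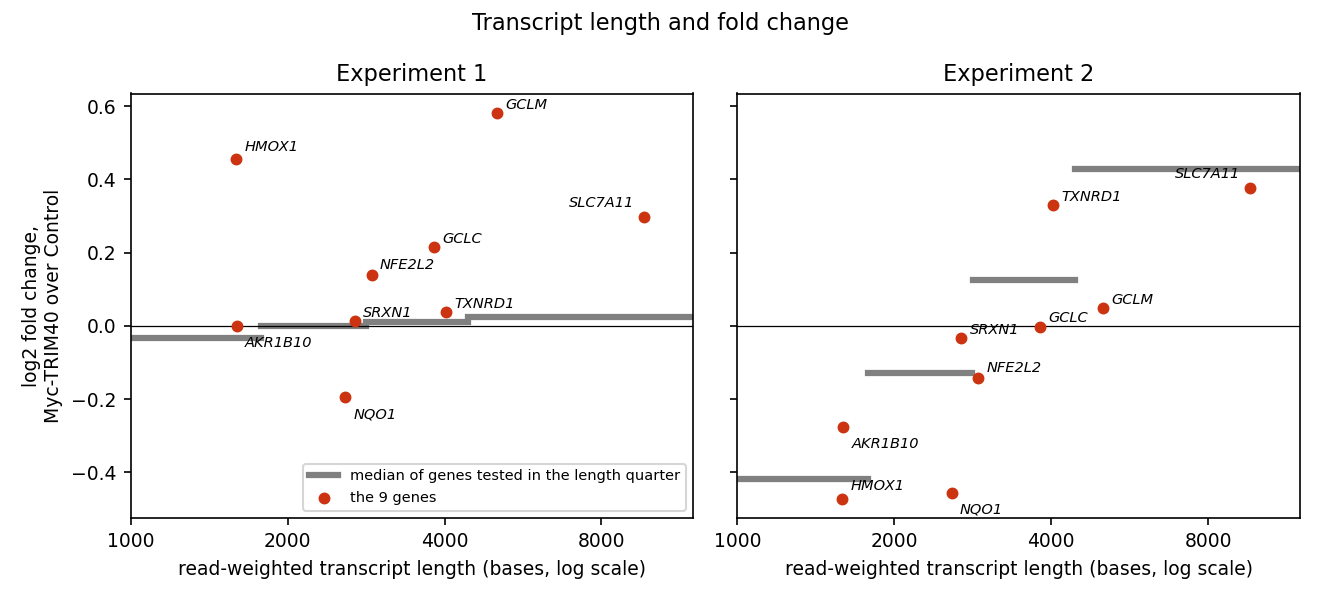
log2 fold change of TMM-normalized CPM, Myc-TRIM40 over Control, against read-weighted transcript length (log axis) for the 9 genes (red) in each experiment, with the median of all genes tested in each of 4 length groups as grey bars, cut at the edges of the plot. In experiment 2 the bars climb from -0.42 to 0.43, with HMOX1 and AKR1B10 at the short end below 0 and SLC7A11 at the long end above it, while in experiment 1 the bars stay near 0.

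The deposited reads are estimates per transcript variant, and 5 of the 9 genes have more than 1 variant. NQO1 was made up mainly of variant 1, with 86.9% to 89.3% of its reads, and GCLC of variant 1, with at least 97.4%. NFE2L2 has 8 variants, of which variants 1, 6 and 7 begin at the most upstream of its positions. These 3 held 31.6% of NFE2L2 reads in Control and 36.5% in Myc-TRIM40 cells in experiment 1, and 29.8% and 43.7% in experiment 2. The share was thus higher with Myc-TRIM40 in both experiments, while the gene as a whole did not pass the test. Variant 1 made up most of it, at 23.4% and 28.2% in experiment 1 and 21.1% and 32.6% in experiment 2. Variant 7 went the other way in experiment 1, from 3.21% to 2.70%. Variant 2 was lower with Myc-TRIM40 in both, from 34.3% to 16.4% and from 17.6% to 15.8%. Its share thus differed widely between the Control libraries too. The shares were not tested.

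For GCLM and TXNRD1 the share of a variant differed in opposite directions in the experiments. GCLM variant 2 took 61.5% and 7.79% of the reads of the gene in Control and Myc-TRIM40 in experiment 1, and 0 of 3560 reads (which allows a share of up to 0.0843%, from 3 reads) and 33.6% in experiment 2. TXNRD1 variant 3 took 68.2% and 31.6% in experiment 1 and 52.0% and 60.3% in experiment 2. Its variant 1 took 22.5% and 30.3% in experiment 1 and was level in experiment 2, at 27.7% and 27.8%. The 95% Wilson intervals of these shares reach at most 2.16 percentage points to either side and cover counting error only, not the error of dividing reads among variants that share most of their sequence. No test was made of them.

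**Figure D4:**
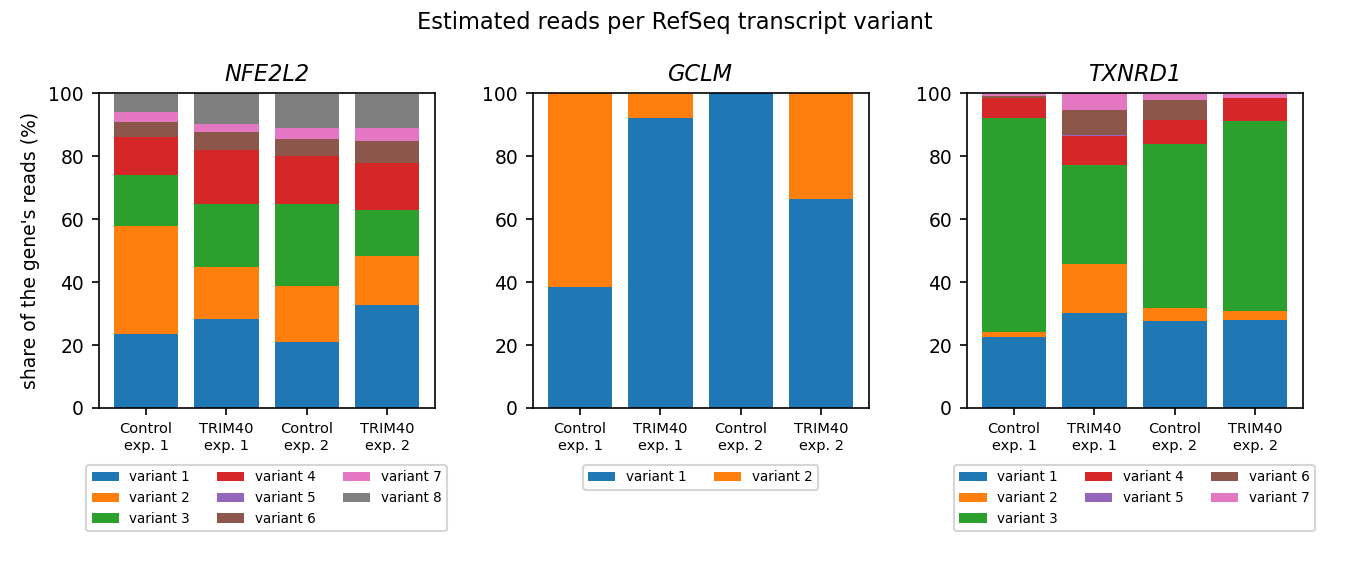
Share of the reads of NFE2L2, GCLM and TXNRD1 (percent) estimated for each RefSeq transcript variant in the 4 libraries, as stacked bars. GCLM variant 2 goes from 61.5% to 7.79% in experiment 1 and from 0 to 33.6% in experiment 2, while NFE2L2 variant 1 is larger in both Myc-TRIM40 libraries.

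Around the 9 genes, 95 further genes of the pathway and its neighbours were grouped in 8 lists, and 93 of them were expressed enough to be tested. None passed an adjusted p of 0.05, while 5 were higher and 1 was lower at an unadjusted p under 0.05, against 3.41% and 1.13% of all genes tested. Of the 93, 12 were higher and 37 lower in both experiments, against 28.6% and 26.3% of all genes. The median log2 difference of the 93 was -0.015 in experiment 1 and -0.33 in experiment 2. Of these genes 42 were in the shortest length group, and relative to the medians of their length groups the values were 0.0027 and -0.11.

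Among 12 regulators of NRF2, 0 were called, and the median log2 fold change was 0.22. Of the 12, 6 were in the longest length group. Relative to the medians of their length groups, the medians were 0.12 in experiment 1 and -0.10 in experiment 2. KEAP1, the sensor that holds NRF2, was at 32.1 and 33.5 FPKM in experiment 1 and at 27.2 and 25.4 FPKM in experiment 2. BACH1, a repressor that competes for the same elements and keeps HMOX1 low, was at 5.96 and 9.36 FPKM for Control and Myc-TRIM40 in experiment 1 and at 4.92 and 6.97 FPKM in experiment 2. Its Myc-TRIM40 libraries lay above both Controls on normalized reads, as for 11.0% of all genes tested (log2 fold change 0.56, SE 0.21, adjusted p = 0.888 in edgeR). The log2 differences of BACH1 were 0.63 and 0.49 in experiments 1 and 2. The medians of its length group, the longest, were 0.023 and 0.43. MAFF, a small MAF partner of NRF2, had a log2 fold change of 0.61 (SE 0.28, adjusted p = 0.888), with 1.12 in experiment 1 and 0.091 in experiment 2. RBX1, the RING subunit of the KEAP1 and CUL3 ligase, was at -0.13 and -0.79.

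The lists of glutathione metabolism (20 genes tested), of thioredoxin and peroxiredoxin proteins (14) and of carbonyl and xenobiotic reduction (14) had 0 genes called, with median log2 fold changes of -0.19, -0.29 and -0.24. Their medians were -0.045, -0.033 and -0.11 in experiment 1 and -0.44, -0.52 and -0.40 in experiment 2. Of the 48 genes, 31 were in the shortest length group. Relative to the medians of their length groups, the list medians were -0.031, 0.0012 and -0.075 in experiment 1. In experiment 2 they were -0.13, -0.15 and -0.13. The glutathione S-transferase GSTP1 was at 745.8 and 679.3 FPKM in experiment 1 and at 1010 and 672.4 FPKM in experiment 2. Its Myc-TRIM40 libraries lay below both Controls on normalized reads, as for 9.67% of all genes tested (log2 fold change -0.44, SE 0.21, adjusted p = 0.888 in edgeR). GSTP1 was in the shortest length group, whose medians were -0.034 and -0.42 in experiments 1 and 2. GSTO1 had a log2 fold change of -0.45, with -0.069 in experiment 1 and -0.82 in experiment 2. ABCC2, an exporter of glutathione conjugates, was at 0.256 and 0.651 FPKM in experiment 1 and at 0.171 and 0.290 FPKM in experiment 2 (log2 fold change 0.98, SE 0.35, adjusted p = 0.888).

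Thioredoxin itself, TXN, was at 447.6 and 448.8 FPKM in experiment 1 and at 1008 and 627.6 FPKM in experiment 2. PRDX1, a peroxiredoxin, was at -0.13 and -0.62 on the log2 scale of normalized reads in experiments 1 and 2. SESN2, a stress-inducible sestrin, was at 1.06 and 0.23. ALDH3A1, an aldehyde dehydrogenase, was at -0.38 and -0.44, and its libraries did not overlap between conditions, as for 9.67% of all genes tested in that direction. It was in the shortest length group, whose medians were -0.034 and -0.42. AKR1A1 and AKR1C3, relatives of AKR1B10, each had a log2 fold change of -0.37, and the AKR1C genes share much of their sequence, so that reads may be divided between them. None of these genes passed the test, and their adjusted p was 0.888 in edgeR for each.

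The remaining lists also had 0 genes called. The 6 genes of NADPH supply had a median log2 fold change of -0.036, with TALDO1, of the pentose phosphate pathway, at -0.12 and -0.49 in experiments 1 and 2 and IDH1 at -0.0052 and -0.24. The 9 genes of heme and iron handling had a median of -0.24, with 0.036 in experiment 1 and -0.45 in experiment 2. Of these 9, 5 were in the shortest length group, and relative to the medians of their length groups the values were 0.044 and -0.13. The ferritin light chain FTL was at -0.13 and -0.56, the ferrochelatase FECH at -0.32 and -0.22 and the biliverdin reductase BLVRB at -0.043 and -0.45. Among 8 other antioxidant and NRF2-linked genes the median was -0.055. SOD2, the mitochondrial superoxide dismutase, was at -0.91 and -0.25, and TRIM16 was at 0.20 and 1.67, its Control library of experiment 2 standing at 2.88 FPKM against 11.5 to 14.6 FPKM in the other 3.

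SLC7A11 is also a target of ATF4, the factor of the amino acid response, and 10 genes of that response had a median log2 fold change of 0.12 with 0 called. ATF3 was at 2.19 and 14.6 FPKM for Control and Myc-TRIM40 in experiment 1 and at 2.04 and 2.36 FPKM in experiment 2 (log2 fold change 1.41, SE 0.54, adjusted p = 0.888 in edgeR). ATF4 was at -0.058 and -0.41 and the amino acid transporter SLC7A5 at 0.062 and 0.60 on the log2 scale of normalized reads in experiments 1 and 2. On FPKM + 1, 4 of the 10 were at least 1.5-fold higher in experiment 1, against 2.78% of all genes tested. In experiment 2, 1 was higher, against 8.54%, and 1 lower, against 2.88%. DDIT3, 1 of the 4, was also the gene lower in experiment 2, with log2 differences of 1.65 and -1.53 on normalized reads. TRIB3 (0.58 and -0.23) and ASNS (0.63 and -0.31), also of the 4, changed sign, while ATF3 did not.

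**Figure D5:**
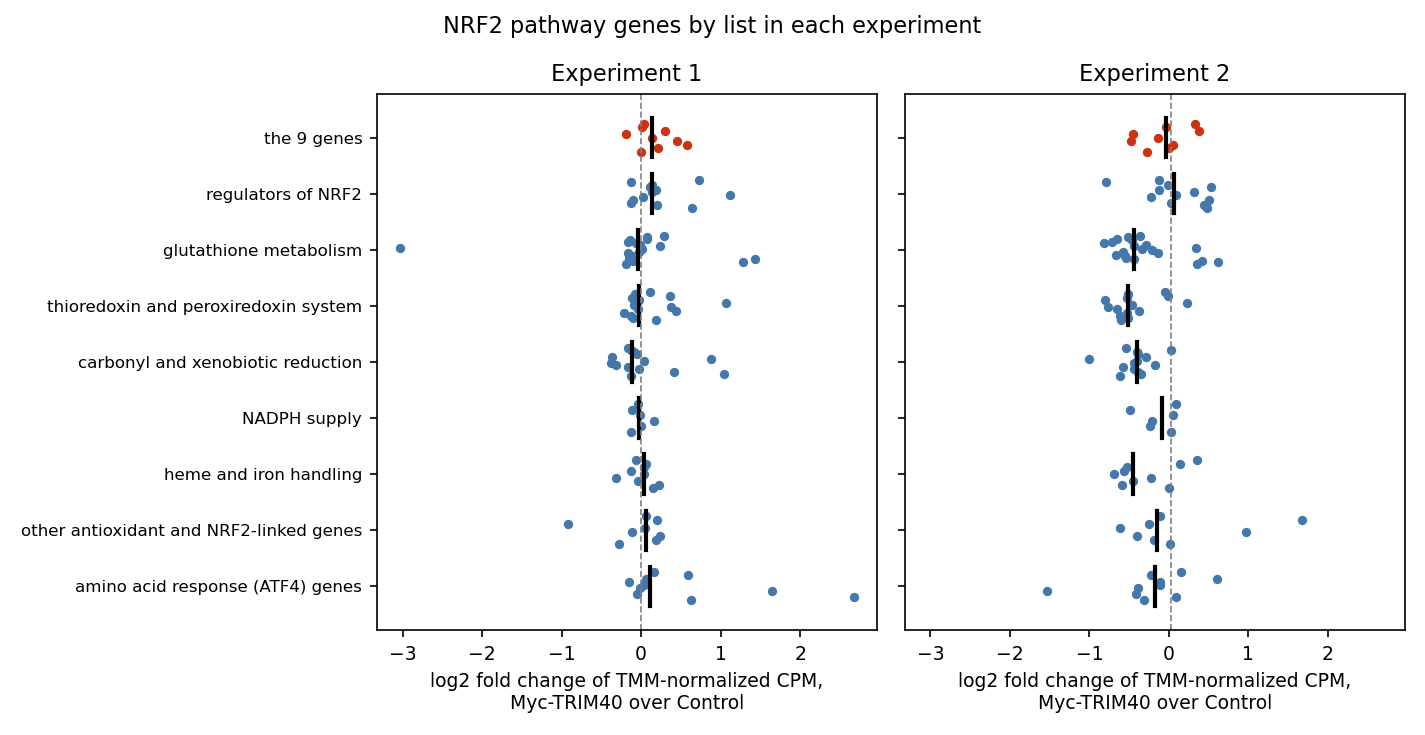
log2 fold change of TMM-normalized CPM, Myc-TRIM40 over Control, for each gene tested of the 9 NRF2 genes (red) and the 8 further lists (blue) in experiments 1 and 2, with black bars at list medians and a dashed line at the median of all genes tested. The medians stay near the dashed line in experiment 1. In experiment 2 those of glutathione metabolism, of thioredoxin and peroxiredoxin proteins and of carbonyl reduction lie at -0.44, -0.52 and -0.40. That of heme and iron handling lies at -0.45. The medians plotted are not taken relative to length groups.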

How the data were processed

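RNA-seq libraries of HT-29 cells, 2 Control and 2 Myc-TRIM40, were prepared with the TruSeq Stranded mRNA kit and sequenced on a NovaSeq system. The submitters' processing notes name HISAT2 2.1.0, StringTie 1.3.4d and hg19. The authors deposited, per RefSeq transcript, read counts (estimates given as whole numbers, not normalized) and FPKM (reads relative to library size and transcript length). Experiment 2 also has deposited TPM (FPKM rescaled by the authors to the same sum in each library). Deposited transcript lengths (bases) were used too. For experiment 1, TPM was computed from FPKM.

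Transcripts were summed per Entrez gene. All genes kept by filterByExpr (14868) were tested in edgeR 4.0.16 (R 4.3.3, TMM, quasi-likelihood, Benjamini-Hochberg), with the experiment as a block because the study compared within experiments. Same-numbered libraries deviated from their condition means together (correlation 0.45), but with 2 pairs the value is the same for both by construction, and the pairing rests on the labels' numbers and on each experiment having its own table. The 95% intervals came from the F statistic. The labels do not say whether replicates were separate cultures, so p-values refer only to these libraries. With so few libraries, edgeR estimates the spread of a gene largely from the other genes tested. The intervals are therefore not the spread of each gene alone. The pseudocount for FPKM ratios was 1. Alternatives were no block, DESeq2 1.42.0, limma 3.58.1 on log2(FPKM + 1), upper-quartile scaling, no filter, AKR1B15 added to AKR1B10, and, for ratios, a pseudocount of 0.1, TPM, a threshold of 2, a minimum mean FPKM of 1 and median centring. The comparison within length groups was chosen after seeing the data. The fits were tested on simulated data with the same spread for every gene and no difference between experiments. Such data do not show how the fits behave on these libraries. Genes named were the 9 genes, TRIM40, genes overlapping or closely related to them, the extremes of the marker lists and, per list, any gene called or past 1.5-fold the same way in both experiments (none was) and up to 3 with the largest fitted change among those of 1 direction. KEAP1, DDIT3, TRIB3 and ASNS were named outside that rule after their values were seen. 1 marker of the leukocyte list is not reported here. The 9 genes and all lists were chosen with earlier results of these data known. Promoter windows came from RefSeq (GRCh38.p14) and were not mixed with hg19 positions.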

Additional observations from a re-analysis of the deposited data

How the results depend on the processing

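The intervals given surround each estimate and are not limits of detection, and a gene was called only on its adjusted p. None of the 9 genes was called in any of the 6 other fits, and 0 had an unadjusted p under 0.05 in any of them. Their adjusted p lay between 0.804 and 1.00. Over all genes, 6 were called higher and 3 lower. Without the experiment as a block (no pairing) these counts were 0 and 0, with 128 and 25 at an unadjusted p under 0.05. With no filter on low counts they were 0 and 0 (343 and 104 unadjusted), in DESeq2 45 and 9, and in limma on log2(FPKM + 1) 3 and 0 (587 and 134 unadjusted). Either experiment alone has 1 library per condition and allows no test. The median log2 fold change of the 9 genes then lay between -0.032 (experiment 2 alone) and 0.14 (experiment 1 alone). At 1.5-fold, a pseudocount of 0.1 gave 1 gene higher in experiment 1, and TPM gave 1 higher there and 2 higher in experiment 2. On TPM + 1 the median of all genes moved by 0.33 in experiment 2. Of the alternative fold changes of the 9 genes, 63 kept their sign and 10 did not. In limma NFE2L2 was at 0.085, HMOX1 at 0.061 and SRXN1 at 0.069. With either experiment left out, NFE2L2 ranged from -0.14 to 0.14, HMOX1 from -0.47 to 0.45, SRXN1 from -0.032 to 0.014 and GCLC from -0.0020 to 0.21. Relative to genes of like length, chosen after seeing the data, HMOX1 was at 0.22, SRXN1 at 0.055 and AKR1B10 at 0.089. The cause of these changes was not tested.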
